A study of Mus musculus with 12 samples.

Results

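Plasma cells, the antibody-secreting end stage of the B cell lineage, were followed through 10 genes that mark them: Jchain, Xbp1, Prdm1, Sdc1, Mzb1, Tnfrsf17, Derl3, Pou2af1, Edem1 and Fkbp11. Each was read from the probe sets annotated with that symbol alone, taking the probe set with the highest mean over 12 arrays, and 10 of 10 were measured among 19938 genes. Total RNA from whole spleens of C57BL/6 mice was hybridised to 12 Affymetrix arrays. The labels place 4 arrays in each of 3 groups: Toll-like receptor (TLR)-deficient mice with colon ascendens stent peritonitis (CASP), wildtype mice with CASP, and wildtype mice without treatment. In CASP, a stent placed in the ascending colon lets bacteria leak from the gut into the abdomen, which causes sepsis. Trif and MyD88, the adaptor proteins of TLR signalling, are named in the titles of TLR-deficient samples. The labels give neither the alleles, the age nor the sex of the mice, nor the time after the operation, and no group of untreated TLR-deficient mice was analysed here. Values are given as log2 expression in the order of replicates 1 to 4. Titles M5 to M8 are the arrays labelled septic TLR-deficient, M9 to M12 those labelled septic wildtype and M13 to M16 those labelled untreated wildtype.

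When a B cell becomes a plasma cell, Prdm1 (Blimp-1) switches off the B cell programme and Xbp1 expands the endoplasmic reticulum (ER), so that immunoglobulin can be folded and secreted in bulk. The spleen is a main site of early antibody secretion against bacteria in the blood. Several of the genes are not private to plasma cells: Prdm1 is also made by T cells and macrophages, Sdc1 by epithelial cells, and Xbp1 and Edem1 by most cells that secrete. In RNA from a whole organ, fewer plasma cells and less RNA of a gene per cell cannot be told apart.

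The promoters of Derl3 and Pou2af1 are shown because they were the members whose 250 bases before the start of the gene held a motif of the unfolded protein response, the pathway in which Xbp1 acts. Sequences are from RefSeq on GRCm38.p6, where 10 promoters of 9 of the 10 genes were found (Mzb1 was not among them), and both strands of all 32851 promoters were searched. In Derl3 (chr10:75893148-75893397, plus strand) the capitals mark the ER stress response element, which is CCAAT, 9 unfixed bases and CCACG, read on the opposite strand, from 156 to 138 bases before the start. In Pou2af1 (chr9:51213440-51213689, plus strand) they mark the unfolded protein response element TGACGTGG, from 61 to 54 bases before the start.
Derl3: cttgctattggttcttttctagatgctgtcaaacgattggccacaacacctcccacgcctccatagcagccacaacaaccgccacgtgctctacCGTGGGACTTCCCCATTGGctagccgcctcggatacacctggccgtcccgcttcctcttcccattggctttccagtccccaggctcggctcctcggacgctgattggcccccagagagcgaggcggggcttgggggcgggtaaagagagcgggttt
Pou2af1: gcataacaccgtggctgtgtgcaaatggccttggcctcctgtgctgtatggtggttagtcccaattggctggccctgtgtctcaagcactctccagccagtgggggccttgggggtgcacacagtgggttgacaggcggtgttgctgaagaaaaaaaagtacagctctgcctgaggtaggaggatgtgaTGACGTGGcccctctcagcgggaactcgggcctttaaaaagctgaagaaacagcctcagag
The first motif was present in 37 promoters (0.113%) and the second in 185 (0.563%). The octamer ATTTGCAT, the motif to which the Oct proteins bind with Pou2af1 as coactivator, was present in 526 promoters (1.6%) and in 0 of those of the 9 genes. A match to letters is a description of the sequence and was not tested for binding.

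The arrays did not group by label. Over genes, which are not independent replicates, Pearson's r between any pair of 11 arrays was 0.956 to 0.991, whereas septic wildtype replicate 2 (M10) correlated with the others at 0.765 to 0.809 and had a compressed spread (SD of log2 values 1.21, against 1.91 to 2.07 on the other arrays). For 12 of 12 arrays the array most like it lay in the same run of titles, M5 to M7 with M16, M8 to M11, or M12 to M15, but for only 5 of 12 did it carry the same label. Each of these title blocks mixes labels. The probe set of Myd88, the gene of the adaptor MyD88, had a median of 9.43 (range 8.62 to 9.64) on septic TLR-deficient arrays, 8.74 (6.48 to 9.20) on septic wildtype arrays and 9.23 (8.87 to 9.75) on untreated wildtype arrays. That of Ticam1, the gene of Trif, had medians of 5.90 (5.80 to 5.93), 6.10 (5.64 to 6.22) and 6.33 (5.76 to 6.57) in that order of labels. Neither probe set separated the TLR-deficient arrays from all others, and whether the probes lie in the altered part of either gene was not analysed here. Groups are therefore called by what the arrays are labelled.

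No plasma cell gene passed the adjusted test between labels, and Prdm1 had the largest difference of the 10 in both comparisons with septic wildtype arrays. On the arrays labelled septic TLR-deficient Prdm1 was 1.07 log2 units higher than on those labelled septic wildtype, and on those labelled septic wildtype it was 1.03 units lower than on those labelled untreated wildtype. Septic TLR-deficient minus septic wildtype is called the genotype contrast here, septic wildtype minus untreated wildtype the sepsis contrast, and septic TLR-deficient minus untreated wildtype the combined contrast. With limma fitted across all genes and Benjamini-Hochberg adjustment, 0 of the 10 genes passed an adjusted p of 0.05 in any of the 3 contrasts, and neither did any other gene (0% of 19938). At an unadjusted limma p under 0.05, 2 of 10 genes passed in the genotype contrast (Prdm1 higher, Tnfrsf17 lower), where 6.65% of all genes did. In the sepsis contrast 2 of 10 passed (Prdm1 and Xbp1, both lower), against 5.92% of all genes in that direction. In the combined contrast 0 of 10 passed, against 1.88% of all genes. The first 2 contrasts share the septic wildtype arrays, so an opposite sign in them is not independent evidence. The sample titles call the replicates biological, but the labels do not say that they are separate mice. The p-values therefore measure only the spread between these arrays, part of which may be technical.

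**Figure D1:**
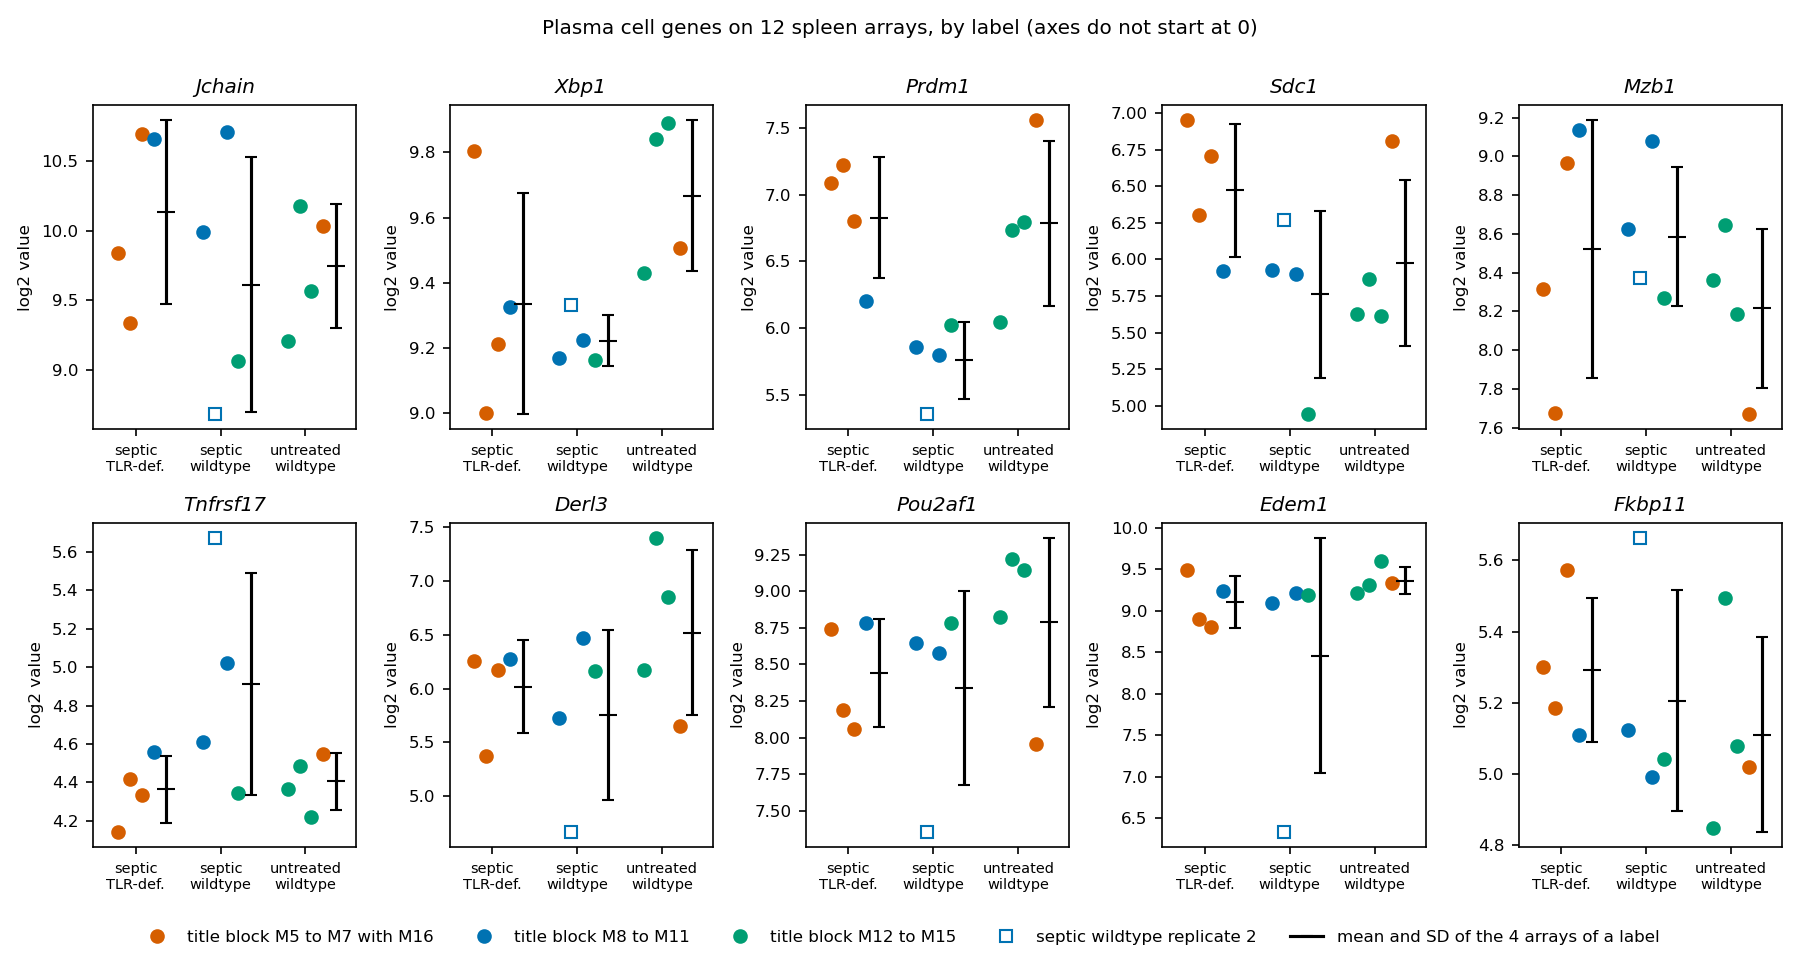
Log2 expression of the 10 plasma cell genes on each array (vertical axes, 1 panel a gene) by label (horizontal axes), with points coloured by title block, a white square for septic wildtype replicate 2, and the mean ± SD of 4 arrays in black. Prdm1 lies between 6.20 and 7.22 on the arrays labelled septic TLR-deficient, above the 5.35 to 6.02 of those labelled septic wildtype, and Edem1 reads 6.33 on septic wildtype replicate 2 and at least 8.80 elsewhere.

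Among the regulators, Prdm1 encodes the repressor that drives terminal differentiation. It read 7.09, 7.22, 6.80 and 6.20 on the arrays labelled septic TLR-deficient, 5.85, 5.35, 5.80 and 6.02 on those labelled septic wildtype, and 6.05, 6.74, 6.79 and 7.56 on those labelled untreated wildtype. All 4 septic TLR-deficient arrays lay above all 4 septic wildtype arrays, as in 2.05% of all genes, and all 4 septic wildtype arrays lay below all 4 untreated ones, as in 2.74% of all genes. Its genotype contrast was 1.07 (SE 0.31, n = 4 each, limma adjusted p = 0.590), a 2.10-fold ratio on the linear scale. The sepsis contrast was -1.03 (SE 0.31, limma adjusted p = 0.439) and the combined contrast 0.04 (SE 0.31). The exact two-sided permutation p was 0.0286 in the first 2 contrasts, the smallest that 70 arrangements of 4 against 4 allow. Of the 30 such tests over genes and contrasts, 4 reached it.

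The levels of Prdm1 also followed the titles. The block of M5 to M7 with M16 held 6.80 to 7.56, above the other 8 arrays at 5.35 to 6.79, a separation seen in 1.72% of all genes. The lowest of the septic TLR-deficient arrays (M8, 6.20) belongs to the block of M8 to M11, and the highest untreated array (M16, 7.56) to the block of the other TLR-deficient ones. With replicates 1 to 3 only and septic wildtype replicate 2 also left out, which leaves out each array whose title block differs from that of its label's other 3, the genotype contrast was 1.21 (SE 0.23, limma adjusted p = 0.0184), when 5.03% of all genes passed. In this setting every label is a single title block, so label and title block cannot be told apart. It was chosen after seeing the data, and over the 21 alternatives the adjusted p ranged from 0.0184 to 0.772.

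Xbp1 encodes the transcription factor of the unfolded protein response that builds the secretory apparatus. It read 9.80, 9.0, 9.21 and 9.33 on the septic TLR-deficient arrays, 9.17, 9.33, 9.23 and 9.16 on the septic wildtype arrays, and 9.43, 9.84, 9.89 and 9.51 on the untreated wildtype arrays. The 4 septic wildtype arrays lay close to each other (SD 0.079) and below all untreated arrays. The sepsis contrast was -0.45 (SE 0.20, limma adjusted p = 0.439), but only -0.05 after a further quantile normalization of the arrays. The genotype contrast was 0.11 (SE 0.20), but -0.19 after that normalization, and the combined contrast -0.33 (SE 0.20).

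Pou2af1 (OBF-1) encodes a B cell coactivator that plasma cells keep. It read 8.74, 8.19, 8.06 and 8.78 on the septic TLR-deficient arrays, 8.65, 7.35, 8.58 and 8.78 on the septic wildtype arrays, and 8.82, 9.22, 9.14 and 7.96 on the untreated wildtype arrays. The labelled groups overlapped, with septic wildtype replicate 2 and untreated wildtype replicate 4 as the lowest arrays. The sepsis contrast was -0.45 (SE 0.35, limma adjusted p = 0.459) with all 12 arrays, -0.12 without septic wildtype replicate 2 and -0.02 after further quantile normalization. By title, M12 to M15 held the highest readings (8.78 to 9.22, against 7.35 to 8.78 on the other 8), as in 0.757% of all genes, but its lowest array and the highest of the others agree to 2 decimals.

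Of the surface proteins, Sdc1 encodes syndecan-1 (CD138), the proteoglycan by which plasma cells are sorted. It read 6.95, 6.30, 6.71 and 5.92 on the septic TLR-deficient arrays, 5.93, 6.27, 5.90 and 4.94 on the septic wildtype arrays, and 5.62, 5.87, 5.61 and 6.81 on the untreated wildtype arrays. The groups overlapped: septic TLR-deficient replicate 4 lay among the septic wildtype arrays, septic wildtype replicate 4 was the lowest array of all and untreated replicate 4 the second highest. The genotype contrast was 0.71 (SE 0.34, limma adjusted p = 0.590), the combined contrast 0.50 (SE 0.34) and the sepsis contrast -0.22 (SE 0.34). Without septic wildtype replicate 4 the genotype contrast was 0.44, and without untreated replicate 4 the combined contrast was 0.77. The sepsis contrast had no settled sign: it was 0.06 without either of these arrays in turn and -0.0078 after further quantile normalization.

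On M5 to M7 with M16, the block where Prdm1 was also above all other arrays, Sdc1 held 6.30 to 6.95, against 4.94 to 6.27 on the other 8 arrays. The other blocks ran in opposite order for the 2 genes, with M8 to M11 the lower for Prdm1 (5.35 to 6.20, against 6.02 to 6.79 on M12 to M15) and M12 to M15 the lower for Sdc1. On M12 to M15 it held 4.94 to 5.87, below the 5.90 to 6.95 of the other 8, a separation seen in 0.818% of all genes. With replicates 1 to 3 only and septic wildtype replicate 2 also left out, Sdc1 was 0.96 higher on septic TLR-deficient than on untreated wildtype arrays (SE 0.17, limma adjusted p = 0.0209, in a setting chosen after seeing the data where 3.39% of all genes passed). That compares M5 to M7 with M13 to M15, again 1 title block with another, so label and block cannot be told apart, and untreated M16 (6.81) lies within the range of M5 to M7. Over the 21 alternatives this adjusted p ranged from 0.0209 to 1.0.

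Tnfrsf17 encodes BCMA, the receptor for APRIL and BAFF that keeps plasma cells alive. It read 4.14, 4.42, 4.33 and 4.56 on the septic TLR-deficient arrays, 4.61, 5.67, 5.02 and 4.34 on the septic wildtype arrays, and 4.36, 4.49, 4.22 and 4.55 on the untreated wildtype arrays. Septic wildtype replicate 2 was the highest array and replicate 3 of that label the next. Tnfrsf17 averaged 4.56 over 12 arrays, below the median over genes of every array (5.57 to 5.74). Its 5.67 on septic wildtype replicate 2, the array of compressed spread, was at the median over genes of that array (5.67). The genotype contrast was -0.55 (SE 0.25, limma adjusted p = 0.590) with all 12 arrays and -0.30 without replicate 2. The block of M8 to M11 lay at 4.56 to 5.67, above the 4.14 to 4.55 of the other 8 arrays, as in 1.18% of all genes.

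The ligands and further receptors of this survival system gave no adjusted call among the 3 of 4 that were measured. Tnfsf13b, the gene of BAFF, averaged 6.87 on the septic wildtype arrays and 7.49 on the untreated wildtype arrays (difference -0.61, SE 0.23, limma adjusted p = 0.439), and 7.27 on the septic TLR-deficient arrays. Without septic wildtype replicate 2 its sepsis contrast was -0.45. The receptor genes Tnfrsf13b (TACI) and Tnfrsf13c (BAFF receptor) differed by -0.12 and -0.52 in the genotype contrast (-0.31 and -0.72 without septic wildtype replicate 2), and by -0.18 and 0.13 in the sepsis contrast (0.02 and 0.33 without it).

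Among the genes of the antibody itself, Jchain encodes the chain that joins units of polymeric IgM and IgA. It read 9.84, 9.34, 10.70 and 10.66 on the septic TLR-deficient arrays, 9.99, 8.68, 10.71 and 9.06 on the septic wildtype arrays, and 9.21, 10.17, 9.57 and 10.04 on the untreated wildtype arrays. High and low arrays occurred under each label, and the spread within septic wildtype (SD 0.92) exceeded every difference between labels. The genotype contrast was 0.52 (SE 0.43, limma adjusted p = 0.599), ranging from -0.39 to 0.89 over the alternatives. It was 0.21 without septic wildtype replicate 2. The sepsis contrast was -0.14 (SE 0.43) with all arrays and 0.18 without that one.

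Mzb1 encodes an ER protein that helps assemble IgM. It read 8.31, 7.67, 8.96 and 9.13 on the septic TLR-deficient arrays, 8.62, 8.37, 9.08 and 8.27 on the septic wildtype arrays, and 8.36, 8.65, 8.19 and 7.67 on the untreated wildtype arrays. Its genotype, sepsis and combined contrasts were -0.06, 0.37 and 0.31 (SE 0.32 each). The genotype contrast had no settled sign, with 0.22 without septic TLR-deficient replicate 2 and -0.40 after further quantile normalization, which also gave a sepsis contrast of 0.79. The arrays M7, M8 and M11, which carry both septic labels, were the 3 highest for Jchain and for Mzb1.

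Of the folding and quality control genes, Derl3 encodes a channel component of ER-associated degradation (ERAD). It read 6.25, 5.37, 6.17 and 6.27 on the septic TLR-deficient arrays, 5.72, 4.66, 6.47 and 6.16 on the septic wildtype arrays, and 6.17, 7.40, 6.86 and 5.65 on the untreated wildtype arrays. Untreated wildtype replicates 2 and 3 were the highest and septic wildtype replicate 2 the lowest, and the groups overlapped. The sepsis contrast was -0.77 (SE 0.42, limma adjusted p = 0.439) with all arrays, -0.40 without septic wildtype replicate 2 and -0.47 without untreated replicate 2. Derl3 is abundant in pancreatic acinar cells, and the 15 measured acinar markers (of 17 listed) were unevenly present. Their summed level in log2 units ranged from 8.51 to 8.88 on the septic TLR-deficient, 8.69 to 12.74 on the septic wildtype and 8.58 to 13.68 on the untreated wildtype arrays. Untreated wildtype replicate 2 was highest in both, but replicate 3 of that label, second for Derl3, was among the lowest in acinar markers. The part of acinar RNA in Derl3 was not tested.

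Edem1 encodes a lectin that hands misfolded glycoproteins to ERAD. It read 9.49, 8.90, 8.80 and 9.24 on the septic TLR-deficient arrays, 9.10, 6.33, 9.22 and 9.20 on the septic wildtype arrays, and 9.22, 9.31, 9.60 and 9.34 on the untreated wildtype arrays. All 4 septic wildtype arrays lay below all 4 untreated ones, but the nearest arrays of both labels read 9.22. The sepsis contrast of -0.90 (SE 0.52, limma adjusted p = 0.439) rested on septic wildtype replicate 2 and was -0.19 without it. Likewise, the genotype contrast was 0.65 (SE 0.52) with that array and -0.06 without it.

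Fkbp11 encodes a prolyl isomerase of the ER found in secretory cells. It had the narrowest range of the genes, 0.815 units over 12 arrays, with 5.30, 5.19, 5.57 and 5.11 on the septic TLR-deficient arrays, 5.12, 5.66, 4.99 and 5.04 on the septic wildtype arrays, and 4.85, 5.49, 5.08 and 5.02 on the untreated wildtype arrays. Its genotype, sepsis and combined contrasts were 0.09, 0.10 and 0.18 (SE 0.21 each), the first 2 ranging from -0.01 to 0.29 and from -0.08 to 0.22 over the alternatives, and each label held both high and low arrays.

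**Figure D2:**
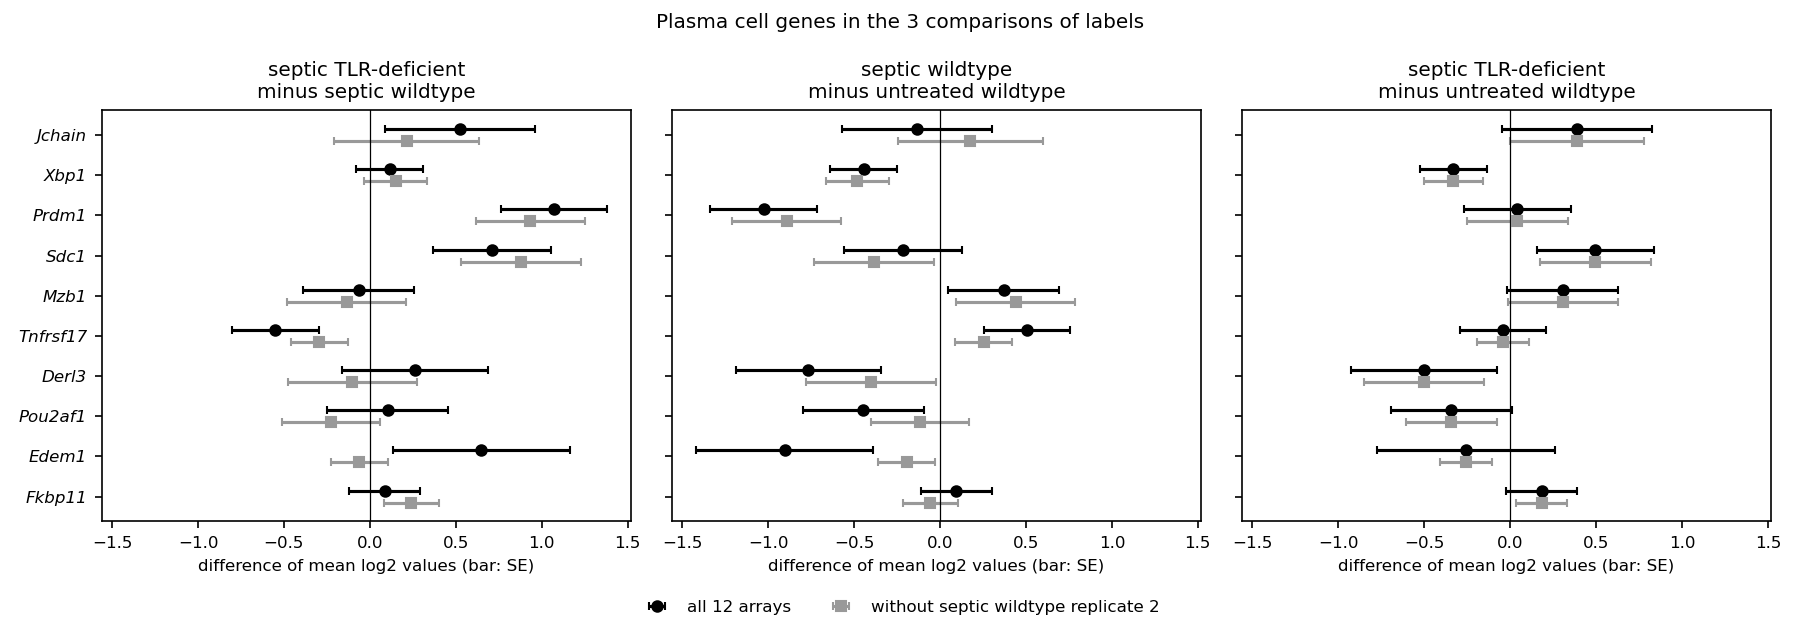
Log2 difference ± SE from limma for each gene (vertical axis) in the 3 contrasts (panels), with all 12 arrays in black and without septic wildtype replicate 2 in grey. In the genotype contrast Prdm1 reads 1.07 with that array and 0.93 without it, whereas Edem1 reads 0.65 with it and -0.06 without it.

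Over the 10 genes the median of the genotype contrast was 0.19, against -0.06 over all genes, and 8 of 10 means were higher, as were 43.9% of all genes. That of the sepsis contrast was -0.33, against 0.07 over all genes, and 7 of 10 means were lower, as were 44.9% of all genes. Without septic wildtype replicate 2 these medians were 0.04 and -0.16, with 5 of 10 means higher in the genotype contrast (48% of all genes) and 7 of 10 lower in the sepsis contrast (44.7%). The first median was 0.018 with array weights, and the second -0.015 after further quantile normalization. In the combined contrast 5 means were higher and 5 lower, and 51.9% of all genes were higher. In 3 of 10 genes (Prdm1, Xbp1 and Edem1) the septic wildtype arrays lay wholly below the untreated ones, against 2.74% of all genes. Septic wildtype replicate 2 was the lowest array in 5 of the 10 genes and the highest in 2, and over all genes it was the lowest in 35.3% and the highest in 40.5%.

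The genes did not move as one across arrays. For the 45 pairs, the root mean square difference between the centred profiles of 2 genes had a median of 0.695 log2 units over 12 arrays. Derl3 and Pou2af1 were the most alike pair (0.336), and Tnfrsf17 and Edem1 the least (1.18). The distance of the least alike pair rested on septic wildtype replicate 2. Without that array Tnfrsf17 and Edem1 were 0.346 apart, and the median of the pairs was 0.532. The most alike were then Xbp1 and Edem1 (0.167), the factor of the unfolded protein response and an ERAD gene. The least alike were Prdm1 and Mzb1 (0.958). Pairs of genes outside the set were not measured for comparison. The gene outside the set nearest to Prdm1 over 12 arrays was Bhlhe40 (0.201), that nearest to Sdc1 was Fkbp14 (0.187), and that nearest to Edem1 was Rab1a (0.110). For the other genes they were Pgrmc1 for Jchain (0.267), Znrd2 for Xbp1 (0.139), Pccb for Mzb1 (0.200), Saxo2 for Tnfrsf17 (0.144), Sars2 for Derl3 (0.251), Cops7a for Pou2af1 (0.118) and Poc1a for Fkbp11 (0.108). Nearest to the mean profile of the 10 were Nubp2 (0.101), Faap24 (0.102), Zcchc18 (0.102), Txnl4a (0.109) and Fbxo6 (0.109). These are descriptions over 12 arrays that share title blocks.

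Further plasma cell genes, 22 of 24 measured, gave 0 adjusted calls in each contrast. In the genotype contrast 16 means were higher and 6 lower (median 0.24), and without septic wildtype replicate 2 14 were higher and 8 lower (median 0.14). Ell2, an elongation factor that favours secretory immunoglobulin transcripts, averaged 7.54 on the septic TLR-deficient arrays and 6.65 on the septic wildtype arrays (difference 0.89, SE 0.25, limma adjusted p = 0.590). This difference was 0.66 without septic wildtype replicate 2. Tent5c, a poly(A) polymerase that stabilises immunoglobulin transcripts, read 9.13, 8.93, 9.34 and 9.44 on the septic TLR-deficient arrays, 8.38, 7.99, 8.68 and 8.59 on the septic wildtype arrays, and 7.61, 8.65, 8.70 and 8.44 on the untreated wildtype arrays. All 4 septic TLR-deficient arrays lay above all 4 septic wildtype arrays, as in 2.05% of all genes. The lowest of the septic TLR-deficient arrays read 8.93 and the highest untreated wildtype array 8.70. The share of all genes with these 2 labels apart is not given here. The genotype contrast was 0.80 (SE 0.25, limma adjusted p = 0.590) and the combined contrast 0.86 (SE 0.25, limma adjusted p = 1.0). Without septic wildtype replicate 2 the genotype contrast of Tent5c was 0.66. Tent5c is also expressed in erythroid cells, and 10 of 10 measured erythroid markers (of 12 listed) had higher means on the septic TLR-deficient arrays in both contrasts, with medians of 0.63 and 1.11. The summed level of those markers was 12.08 to 12.75 on the septic TLR-deficient, 10.74 to 12.26 on the septic wildtype and 10.76 to 11.69 on the untreated wildtype arrays. Their part in Tent5c was not tested.

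In the sepsis contrast 7 means of the further plasma cell genes were higher and 15 lower (median -0.27). Irf4, the factor that starts plasma cell differentiation with Prdm1, read 7.46, 5.70, 7.41 and 7.90 on the septic wildtype arrays and 7.64, 8.28, 8.14 and 8.44 on the untreated wildtype arrays. The groups overlapped at septic wildtype replicate 4, and the difference was -1.01 (SE 0.40, limma adjusted p = 0.439), but -0.54 without septic wildtype replicate 2. Cd93, needed for the upkeep of plasma cells in bone marrow and also made by endothelial and myeloid cells, differed by -0.95 (SE 0.33, limma adjusted p = 0.439). Without septic wildtype replicate 2 Cd93 differed by -0.66.

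Genes of ER folding, ERAD and secretion, 35 of 36 measured, had higher means in 31 and lower in 4 in the genotype contrast (median 0.33), and higher in 5 and lower in 30 in the sepsis contrast (median -0.42), with 0 adjusted calls in either. Without septic wildtype replicate 2 the medians were 0.03 and -0.11. The largest differences were Ssr3, a subunit of the translocon-associated complex (0.90, SE 0.37), and Atf6, an ER stress sensor (0.86, SE 0.36), in the genotype contrast. In the sepsis contrast they were Dnajb9, a co-chaperone of the ER (-0.92, SE 0.31), and Sec24d, a coat protein of transport from the ER (-0.88, SE 0.32). The limma adjusted p was 0.590 for the first pair and 0.439 for the second. Without septic wildtype replicate 2 the values were 0.43 for Ssr3, 0.42 for Atf6, -0.58 for Dnajb9 and -0.54 for Sec24d.

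The B cell programme that Prdm1 represses had 20 of 22 genes measured and 0 adjusted calls. Its means were higher in 8 and lower in 12 in the genotype contrast (median -0.13), and higher in 5 and lower in 15 in the sepsis contrast (median -0.18). Septic wildtype replicate 2 altered both contrasts. Without it the median of the genotype contrast was more negative (-0.54), with 3 means higher and 17 lower. The median of the sepsis contrast changed sign (0.14), with 13 means higher and 7 lower. In the combined contrast 2 were higher and 18 lower (median -0.43). By title, its mean centred level was -0.73 to -0.19 on M5 to M7 with M16, -1.15 to 0.57 on M8 to M11 and 0.19 to 0.48 on M12 to M15. A low level on M5 to M7 with M16 was not particular to B cell genes. T cell markers held -0.63 to -0.31 there and plasmacytoid dendritic cell markers -0.57 to -0.26, whereas macrophage and monocyte markers held -0.22 to 0.13. Whether these arrays held fewer B cells was not tested. The lowest level of the programme (-1.15) and the lowest Prdm1 (5.35) were both on M10, the array of compressed spread, which was the lowest in 35.3% of all genes. Fcer2a, the IgE receptor of mature B cells, differed by -2.41 in the genotype contrast (SE 0.96, limma adjusted p = 0.590). Its labelled groups overlapped. It read 4.99 to 9.35 on septic TLR-deficient, 7.63 to 9.88 on septic wildtype and 5.38 to 8.79 on untreated wildtype arrays. By title it read 4.99 to 5.38 on M5 to M7 with M16. On M8 to M11 it held 7.76 to 9.88, and on M12 to M15 7.63 to 8.79. The share of all genes for which M5 to M7 with M16 lay below all other arrays is not given here. Myc differed by -1.58 in the sepsis contrast (SE 0.52, limma adjusted p = 0.439), and by -1.0 without septic wildtype replicate 2.

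Cell division genes, active in dividing plasmablasts and in other proliferating cells, had 17 of 18 measured and 0 adjusted calls. In the genotype contrast 17 of 17 means were higher (median 0.70), with 9 at an unadjusted limma p under 0.05 against 4.42% of all genes. The genes of a list are not independent of each other. Their mean centred level was 0.32, 0.06, 1.05 and 0.36 on the septic TLR-deficient arrays, highest on M7. The labels overlapped, with -0.59 to 0.11 on the septic wildtype and -0.53 to 0.06 on the untreated wildtype arrays. Bub1, a spindle checkpoint kinase, differed by 1.05 (SE 0.23, limma adjusted p = 0.590) and Prc1, a spindle protein, by 0.98 (SE 0.25). In the combined contrast 16 were higher and 1 lower (median 0.80), and 10 passed the unadjusted p against 1.17% of all genes. Erythroid markers were higher in the same contrasts, as given above for Tent5c, and which cells divided was not tested.

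Markers of other cells that make some of these genes were uneven as well. The 10 measured markers of plasmacytoid dendritic cells, of 12 listed, had a summed level of 10.55 to 11.88 on the septic TLR-deficient, 10.67 to 11.94 on the septic wildtype and 10.72 to 12.14 on the untreated wildtype arrays. T cell markers (10 of 12 measured) had 11.07 to 12.07, 11.02 to 12.21 and 10.89 to 12.20 on the arrays in the same order of labels. By title they had 10.89 to 11.19 on M5 to M7 with M16, 11.02 to 12.21 on M8 to M11 and 11.33 to 12.20 on M12 to M15. T cells also make Prdm1, and their part in its level was not tested. Macrophage and monocyte markers (10 of 12 measured) had 12.79 to 13.20 on the septic TLR-deficient, 11.77 to 13.23 on the septic wildtype and 13.01 to 13.25 on the untreated wildtype arrays. These levels join markers that went both ways. In the genotype contrast 5 means were higher and 5 lower, from -1.56 for Cd163 to 2.62 for Cd14 (limma adjusted p = 0.590 for each).

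**Figure D3:**
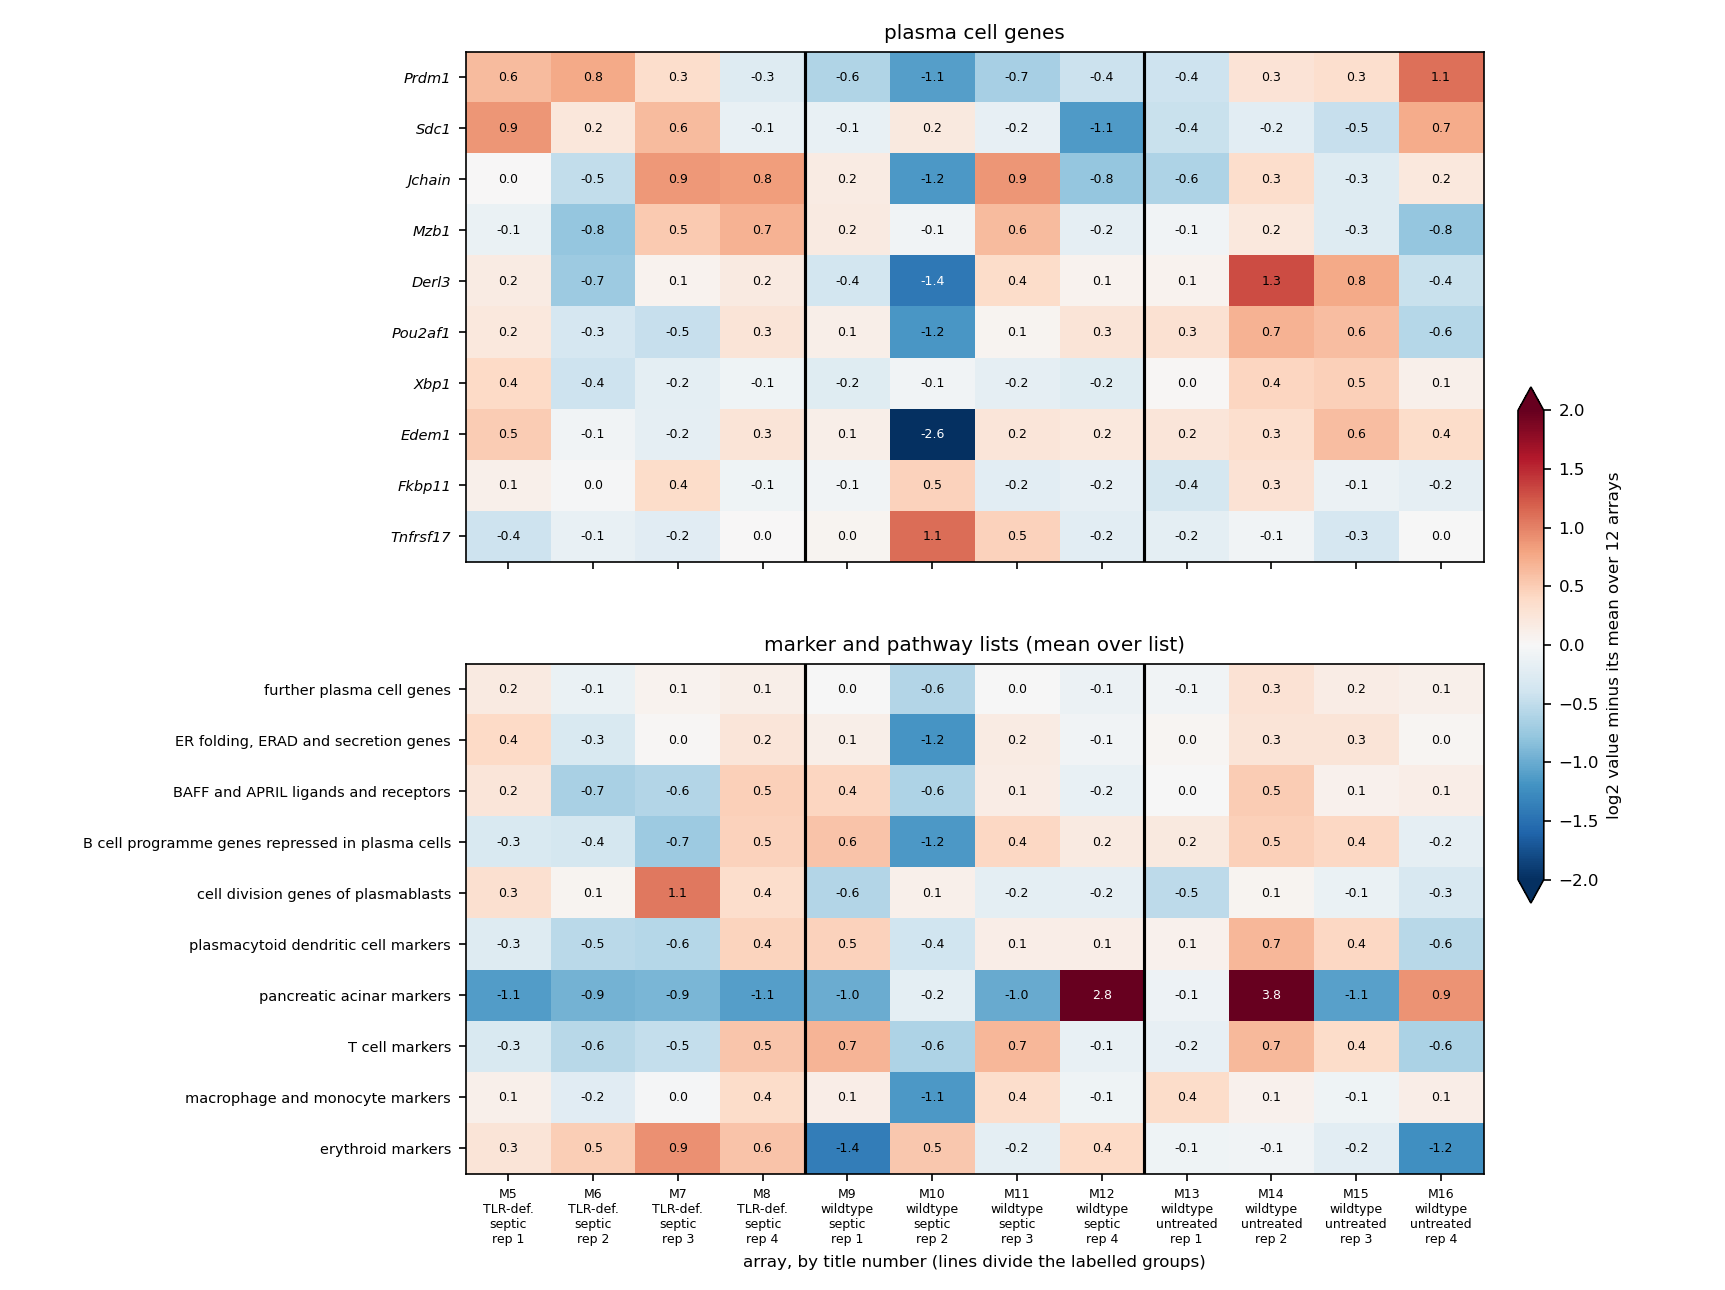
Log2 expression minus the mean over 12 arrays (colour, from -2 in blue to 2 in red) for the 10 plasma cell genes (upper part) and for the mean of each of 10 gene lists (lower part), with arrays in the order of their titles M5 to M16. Prdm1 and Sdc1 are high on M5 to M7 with M16, several lists are low on M10, and acinar markers peak on M12 and M14 at 2.77 and 3.77, beyond the end of the colour scale.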

How the data were processed

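Per the labels, biotin-labelled cDNA of spleen total RNA was read on Affymetrix whole-transcript arrays. The deposited values are log2 expression per probe set, made by RMA in Affymetrix Expression Console per the submitters' processing notes (versions not given in the sources used here). RMA makes the arrays' distributions alike before summarising probes. The deposited values of septic wildtype replicate 2 nevertheless differed in spread over genes (SD 1.21, against 1.91 to 2.07 on the other arrays). The table has 12 columns, all used, and values from 1.33 to 13.79. Of 35557 probe sets, 21789 carry 1 symbol, 1621 several and 12147 none. The single-symbol sets gave 19938 genes by highest mean. No dim gene was removed from the main test, and the median over genes was 5.57 to 5.74 on each array. With 4 arrays a label, precision is limited by their number.

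Groups follow the labels. Differences, SE and p come from limma (version 3.58.1, under R version 4.3.3), with a mean for each label fitted to 12 arrays (eBayes, two-sided, Benjamini-Hochberg over all genes, threshold 0.05), run also on simulated data. Single genes were also compared by exact permutation in scipy 1.17.1. Title blocks got ranges and no test. Figures were drawn with matplotlib 3.10.9. Members, lists, tests and naming rules were chosen with earlier results of these data known. Named are the 10 plasma cell genes, the BAFF and APRIL genes, of other lists at most the 2 largest differences per comparison, and the nearest profiles by root mean square difference. Alternatives were further quantile normalization, other filters, variance models, weights, a replicate block, leaving out each array, and replicates 1 to 3 with or without septic wildtype replicate 2.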

Additional observations from a re-analysis of the deposited data

Results flagged for a closer look

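In 3 of 30 groups of 4 arrays (10 genes by 3 labels) 1 array lay far from the other 3, its gap to the nearest divided by the range of the group exceeding Dixon's critical value. Chance gives about 1 in 20 such groups. Edem1 on septic wildtype replicate 2 (6.33, against at least 9.10 on the other arrays of that label) had a ratio of 0.960. Pou2af1 on the same array (7.35, against at least 8.58) had 0.857. Derl3 on septic TLR-deficient replicate 2 (5.37, against at least 6.17) had 0.884.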

How the results depend on the processing

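Of the 630 values of 30 gene differences under 21 alternatives, 2 newly passed the threshold, 0 called values changed sign, and 12 uncalled values changed sign by more than 1 SE of the contrast, in Jchain, Xbp1, Sdc1, Mzb1, Derl3, Pou2af1 and Edem1. The other 616 did neither. The 2 were Prdm1 in septic TLR-deficient minus septic wildtype and Sdc1 in septic TLR-deficient minus untreated wildtype, both with replicates 1 to 3 only and septic wildtype replicate 2 left out. In that setting, added after seeing the data, 1002 genes passed in septic TLR-deficient minus septic wildtype (1 of the 10 plasma cell genes, whose median was -0.13), 19 in septic wildtype minus untreated wildtype, and 675 in septic TLR-deficient minus untreated wildtype (1 of the 10). With replicates 1 to 3 only, also added later, the counts were 141, 9 and 33. Array weights gave 1 gene in septic wildtype minus untreated wildtype. The median of the 10 genes there was -0.015 after further quantile normalization, and the cause was not tested. Leaving out 1 array at a time called 0 genes throughout, and gave medians of the 10 of 0.04 (without septic wildtype replicate 2) to 0.35 in the first contrast, -0.47 to -0.16 (without septic wildtype replicate 2) in the second, and -0.13 to 0.06 in the third. With a replicate block 0 genes were called and the medians were 0.19, -0.33 and 0.00. After the mean of its label was subtracted from each gene, same-numbered arrays correlated at -0.535 to 0.14 over 12 pairs. In 1 of the 12 the same-numbered array was the best match within the other label. These values give no sign that the numbers pair the samples. With 4 arrays a label, 1 array can decide the value of a gene, as for Edem1.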
